A study of Arabidopsis thaliana with 21 samples.

Results

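The 100 genes described here had the highest levels in the reporter line labelled NAC57 relative to 5 other lines of phloem cells sorted from Arabidopsis thaliana roots. They were chosen by their values in these libraries. The level was CPM, the read count of a gene relative to the total count of its library, on the usual counts-per-million scale. A nuclear gene was eligible with at least 10 CPM in each of the 3 libraries of the line labelled NAC57, which 10446 of 33602 genes in the files reached. The score of a gene was the log2 ratio of its mean CPM in that line to the highest mean among the other lines, with 1 CPM added to both, and the 100 highest scores were kept. Every comparison of the NAC57 line with another line was therefore used in the choice, and those values are given as description.

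The libraries hold RNA of fluorescent protoplasts sorted from root pieces of seedlings aged 5 days, and each line is named by a promoter. The line labelled NAC57 (n = 3) carried pNAC57::2GFP with pCALS7::H2B-RFP. The NAC73 line (n = 4) carried pNAC73::H2B-YFP, the CALS7 line (n = 4) carried H2B-YFP under a promoter that the labels spell pCASL7, and both had pS32::erRFP as well. The PEAR1 line (n = 4) carried pPEAR1::3xYFP, the PEAR1-DBOX line (n = 2) pPEAR1::DBOX-3xYFP and the CVP2-DBOX line (n = 4) pCVP2::DBOX-3YFP, with a destruction box that leads to loss of the reporter protein as mitosis ends. No mutant allele or treatment is given for any line, and the colour of the sorting gate, the number of plants and a batch are not stated. Nothing in the labels says that libraries of a line came from separate cultures or sorts, so p-values measure only the spread between libraries.

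Protophloem sieve elements are the first sugar-conducting cells of the root. Their precursors divide near the root tip, then thicken their walls, build sieve plates with callose and break down the nucleus. PEAR1 and CVP2 act early in this sequence, while CALS7, which makes callose for the sieve plates, and the NAC transcription factors NAC057 and NAC073 are known from later steps.

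The gene NAC057 went against the label. It stood at 23.3 ± 10.6 CPM (SD, n = 3) in the line labelled NAC57, below the means of 39.2 to 453 CPM of the other lines, though its range of 15.2 to 35.3 CPM overlapped that of PEAR1-DBOX (17.5 and 61.0 CPM). CALS7 stood there at 193 ± 102 CPM against 4024 ± 152 CPM in the CALS7 line (SD, n = 4). The summed level of 15 late sieve element genes was 2230 to 2765 CPM in the NAC57 libraries, 956 to 2540 CPM in the PEAR1, PEAR1-DBOX and CVP2-DBOX libraries (the 3 early lines below) and 17267 to 35195 CPM in the CALS7 and NAC73 libraries. NAC073 had a mean of 2.30 CPM in the NAC57 line, 0.548 to 18.4 CPM in the early lines, 152 CPM in CALS7 and 291 CPM in NAC73. S32, left off the late list because its symbol did not match, differed from this sum. It stood at 873 ± 24.4 CPM (SD, n = 3) in the NAC57 line, 857 CPM in NAC73 and 1005 CPM in CALS7. Its means in CVP2-DBOX, PEAR1 and PEAR1-DBOX were 682, 395 and 245 CPM. PEAR1, PEAR2 and PAX were left off the early list because their symbols did not match. The gene PEAR1 had a mean of 343 CPM in the NAC57 line and 111 to 526 CPM in the others. For CVP2 the mean was 633 CPM in the NAC57 line, 727 CPM in CVP2-DBOX and 106 to 281 CPM in the rest. The sum of the 14 early protophloem genes used was 4330 to 5271 CPM in the NAC57 libraries and 4575 to 5680 CPM in those of CVP2-DBOX. It was 3350 to 4309 CPM in CALS7, 2767 to 3456 CPM in PEAR1, 1754 to 2485 CPM in PEAR1-DBOX and 2004 to 2206 CPM in NAC73, so this list did not order the early and late lines. Markers of other cell types summed in the NAC57 libraries to 9.04 to 13.9 CPM for 13 xylem genes, 14.5 to 20.0 CPM for 10 endodermis genes and 14.6 to 46.3 CPM for 5 pericycle genes. For 6 companion cell genes the sum was 401 to 514 CPM there, 109 to 352 CPM in the 3 early lines and 920 to 1273 CPM in CALS7 and NAC73, and its part in the results was not tested. Of these lists, NAC101 of xylem and GPAT5 of the endodermis had 0 counts in the NAC57 and NAC73 lines, and LHW of xylem had 0 in all 6 lines. In the other lines the xylem sum was 0.646 to 241.6 CPM and the endodermis sum 2.904 to 76.6 CPM. The pericycle sum was 2.965 to 14.4 CPM in CVP2-DBOX, CALS7 and NAC73, below every NAC57 library. It was 40.95 to 258.5 CPM in PEAR1 and PEAR1-DBOX. For 9 procambium genes the sum was 82.4 to 112 CPM in the NAC57 libraries, below the 131.8 to 361.8 CPM of all others. For 5 root stem cell niche genes it was 69.55 to 77.6 CPM there and 8.834 to 456.2 CPM elsewhere. Library totals ran from 23513921 to 36198012 counts. The NAC73 libraries stood apart, with counts for 16916 to 19644 genes against 20416 to 30620 in all others, and NAC73 2 and 3 had the smallest TMM scaling factors, 0.510 and 0.507.

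Scores of the 100 genes ran from 1.78 to 0.80 on the log2 scale, beside a median of -0.39 over the eligible genes, and only 40 eligible genes passed 1. In linear terms the mean in the NAC57 line was 1.75 to 3.75 times the next line's, so the genes were enriched in it but not restricted to it. The last 5 genes inside were AT1G05835, AT1G29550, SUMO5 and PFD1 with scores of 0.82 and AT5G49540 with 0.80, and the first 5 outside (AT1G22520, AT3G07580, LBD4, AT1G77350 and CMT2) all had 0.80. The next-highest line was CVP2-DBOX for 39 genes, PEAR1-DBOX for 23, PEAR1 for 16, CALS7 for 15 and NAC73 for 7. The lowest line was NAC73 for 43 genes and CALS7 for 32. For 99 of the 100 the lowest NAC57 library was above every other library, which the rule nearly fixes, beside 8% of the eligible genes. The exception was AT5G52540, with 24.7, 36.7 and 45.5 CPM in the NAC57 libraries and 38.7 CPM in PEAR1 2.

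The order depended on how libraries were scaled. When CPM were divided by TMM factors, which correct for genes that take up much of a library, 60 of the 100 stayed among the first 100, and with median-of-ratios factors 52 did. The factors were 0.507 to 0.783 in the NAC73 libraries and 1.10 in each NAC57 library, so TMM scaling raised NAC73 levels relative to NAC57 levels. With it the next-highest line was NAC73 for 49 of the 100 genes in place of 7. The score stayed above 0 for 97 of them with TMM and for 76 with median-of-ratios factors.

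**Figure D1:**
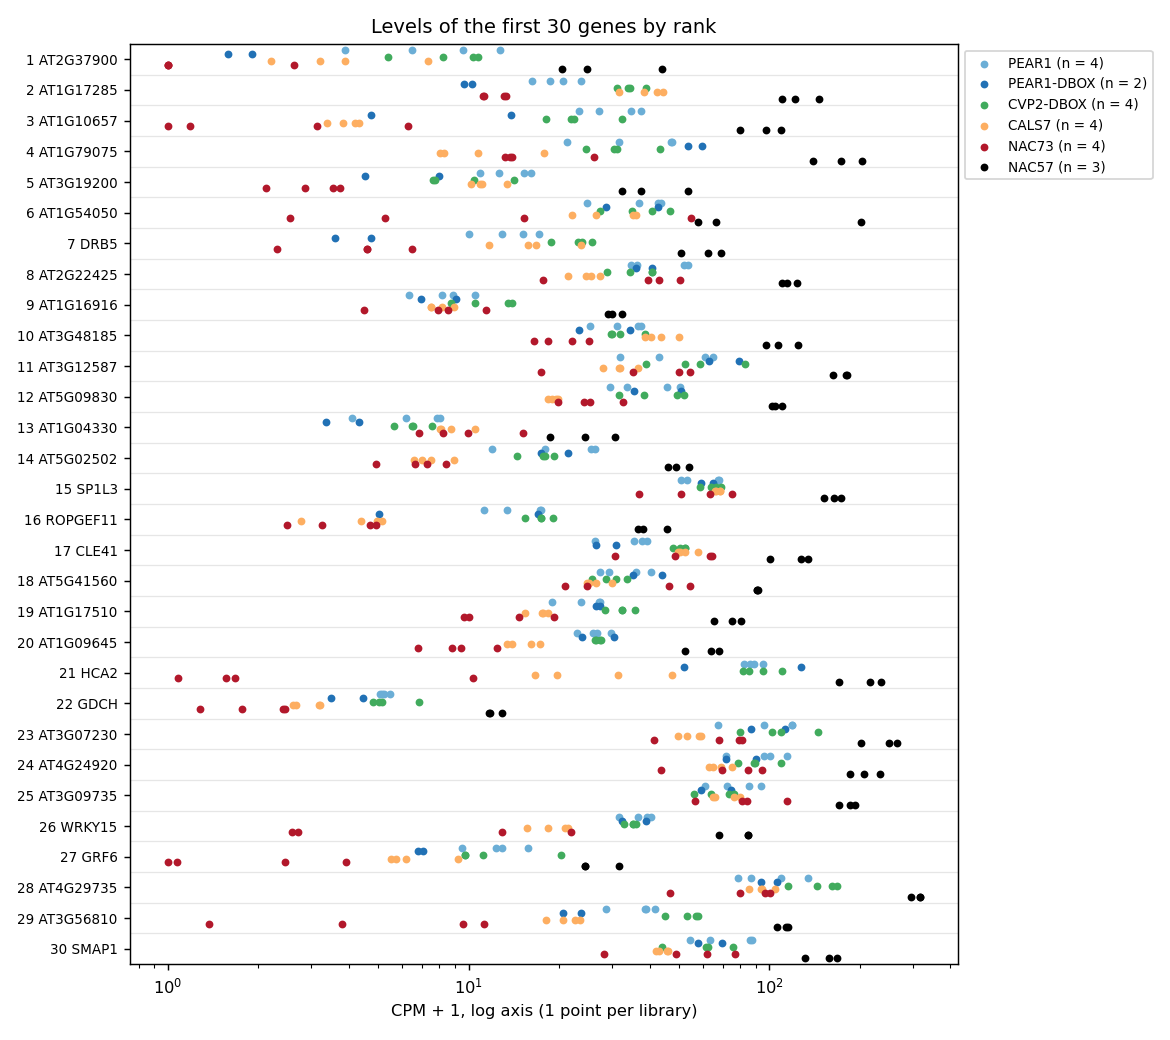
The plot shows CPM + 1 on a log axis in each of the 21 libraries for the first 30 genes by rank, with 1 point per library and lines by colour. The black points of the NAC57 line (n = 3) lie to the right of all others in each row, which the rule nearly fixes. The NAC73 points spread most, as for HCA2, which runs from 0.0807 to 9.31 CPM there.

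Each NAC57 library was also left out of the ranking in turn, which gave only a partial check. Genes were ranked from 2 NAC57 libraries and then read in the third, where the count above all 18 other libraries was 96 of 100 in NAC57 1, 97 in NAC57 2 and 98 in NAC57 4. Over all eligible genes this held for 14.7%, 12.2% and 13.3%. The held-out library was read against the same libraries of the other lines that the ranking used. Low levels in those lines were therefore part of the choice. The counts describe only how far the NAC57 libraries agree. Of the genes ranked first without each library, 87, 89 and 89 were among the 100. The NAC57 libraries agreed closely for most of the 100, with a median coefficient of variation of 11.7%, beside 10.6% over the eligible genes.

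The first gene by rank was AT2G37900, a transporter of the major facilitator superfamily (chr2:15864186-15866769, TAIR10.1). Its levels were 19.5, 23.8 and 43.0 CPM in the NAC57 libraries and between 0 and 11.7 CPM, with a median of 2.88, in the 18 others. It had no count in 3 of the 4 NAC73 libraries. AT1G17285, which codes for an uncharacterized protein (chr1:5920542-5921483), came second with 146, 109 and 121 CPM in the NAC57 libraries and 8.65 to 43.4 CPM elsewhere. AT1G10657, also uncharacterized, had 108, 78.9 and 96.7 CPM in the NAC57 libraries, 17.1 to 36.4 CPM in those of PEAR1 and CVP2-DBOX, 12.9 and 3.75 CPM in those of PEAR1-DBOX and at most 5.29 CPM in those of CALS7 and NAC73. The fourth was AT1G79075, annotated as a non-coding RNA, with 172, 202 and 139 CPM in the NAC57 libraries and 58.6 CPM in the highest other library. AT3G19200 had 52.6, 31.3 and 36.4 CPM there and at most 15.1 CPM elsewhere. In each of these 5 genes the NAC57 libraries and the others did not overlap, which the rule nearly fixes.

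Further genes of uncharacterized proteins followed among the first 30 by rank, 5 of them with 258 to 369 coding bases at ranks 9 to 20. AT1G16916 had 31.4, 28.2 and 28.9 CPM in the NAC57 libraries and at most 12.9 CPM elsewhere. AT3G48185 had 124, 96.4 and 106 CPM against at most 49.0 CPM. AT1G04330 had 29.7, 17.7 and 23.3 CPM, and its highest value elsewhere was 14.2 CPM in NAC73 3. AT1G17510 (79.4, 64.6 and 74.3 CPM) and AT1G09645 (63.1, 51.3 and 66.8 CPM) stood above the highest other library, at 34.9 CPM for the former. All 5 again had no overlap, which the rule nearly fixes.

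AT1G54050, a small heat shock protein gene of the HSP20 class, was the least even of the 100. Its levels were 201 CPM in NAC57 1 and 65.6 and 57.1 CPM in the other NAC57 libraries, and the highest of the 18 other libraries was NAC73 1 with 53.7 CPM. The sum of 10 heat shock genes outside the 100 was 1120 CPM in NAC57 1, 394 and 331 CPM in the other NAC57 libraries and 919 CPM in NAC73 1. It was 884 and 871 CPM in CALS7 1 and 2, where AT1G54050 had 34.2 and 35.1 CPM. The part of this in the rank of AT1G54050 was not tested.

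Short protein products were frequent among the 100, a property the rule did not use, though 32 coding genes had over 450 bases. Of the 100 genes, 96 are annotated as protein coding in TAIR10.1, 3 as non-coding RNA, and AT1G23940 has no entry there. The median coding length was 351 bases, beside 1263 bases in the other eligible coding genes. Of the 96, 64 (66.7%) had at most 450 coding bases, against 843 (8.13%) of 10374 eligible coding genes, and 37 (38.5%) had at most 300 bases, against 290 (2.80%). Of the eligible genes with up to 200 coding bases, 13 of 66 were among the 100, and of those over 1800 bases, 2 of 2730. Among TMM-ranked genes the first 100 held 44 genes of at most 450 bases among 95 coding genes (46.3%). With median-of-ratios factors 48 of 95 (50.5%) were that short, so the excess of short genes was smaller but remained.

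**Figure D2:**
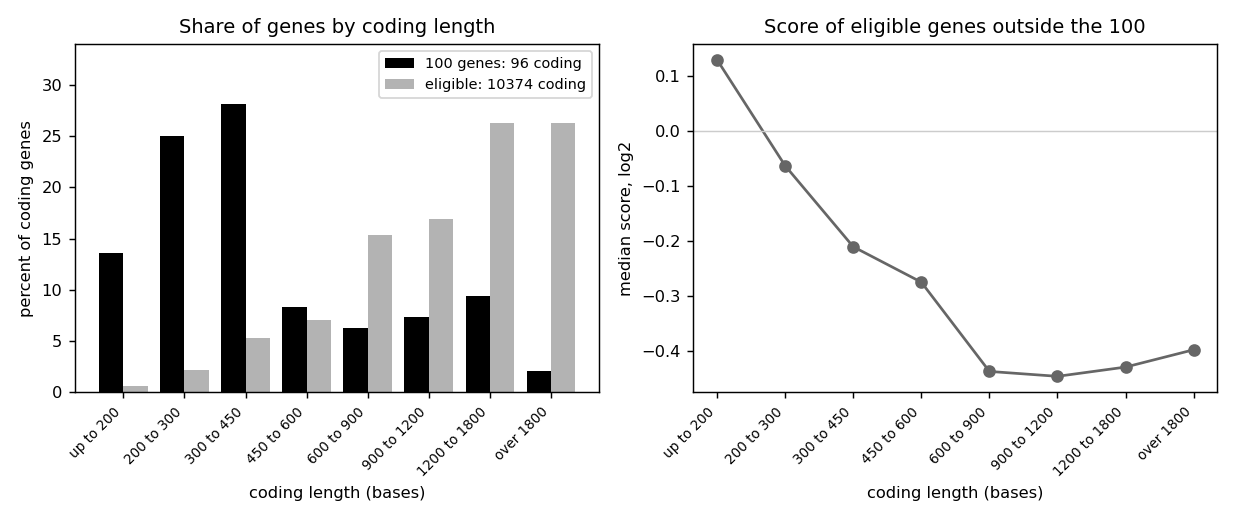
The left panel shows the percent of coding genes in 8 classes of coding length for the 100 genes (black, 96 coding) and for all eligible genes (grey, 10374 coding). The right panel shows the median score, log2, of eligible genes outside the 100 in the same classes, which falls from 0.13 up to 200 bases to -0.44 at 600 to 900 bases.

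The same slope ran through eligible genes outside the 100. Their median score was 0.13 at up to 200 coding bases, -0.21 at 300 to 450 bases and -0.44 at 600 to 900 bases. Against single lines, non-members of up to 200 bases had a median log2 difference of 0.63 over PEAR1, 0.55 over CVP2-DBOX, 0.34 over PEAR1-DBOX and 2.49 over CALS7. Over all eligible coding genes the correlation of score and log2 coding length was weak (Pearson r = -0.085 across 10374 genes, which are not independent replicates and share their libraries). Coding genes of at most 300 bases outside the 100 took 3.19 to 3.49% of nuclear counts in the NAC57 libraries, 3.28 to 3.31% in PEAR1-DBOX and 2.01 to 3.90% in NAC73, so the NAC57 line was not alone in its share of short transcripts. That share was lower in CALS7, at 1.83 to 2.07%, and in CVP2-DBOX, at 1.73 to 2.73%. RNA quality and fragment size of single libraries were not analysed here, and their part in the length pattern was not tested. When each score was set against the median of genes of neighbouring coding length, a ranking added after the data were seen, 58 of the 100 stayed among the first 100, namely 26 of the 64 short genes and all 32 longer ones.

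Protein entry and modification at the endoplasmic reticulum (ER) was a role group of 10 genes. New secretory and membrane proteins pass through the Sec61 channel, lose their signal peptide to signal peptidase and receive N-glycans from oligosaccharyltransferase. The group has AT2G22425 and AT4G40042, the 12 kDa subunits (SPC12) of signal peptidase, AT3G12587 and AT5G02502, annotated as oligosaccharyltransferase subunits, ATDAD1 of the same enzyme, AT4G24920 and SEC61 BETA of the channel, FKBP15-2, a prolyl isomerase, AT5G07960, named asterix-like, and AT5G49540, of the Rab5-interacting family. AT2G22425 (chr2:9514695-9515674) had 114, 123 and 110 CPM in the NAC57 libraries, and the 18 others ran from 16.7 to 52.4 CPM with a median of 35.2. ATDAD1 had 321, 314 and 292 CPM in the NAC57 libraries and 76.6 to 173 CPM in the others, with a median of 138. AT4G24920 had 233, 184 and 206 CPM against 42.7 to 113 CPM. In each of these 3 genes every NAC57 library was above all 18 others, which the rule nearly fixes. AT4G24920 overlaps AT4G24910 on the same strand. Ranked by TMM-scaled CPM, SEC61 BETA came at 1701, AT5G49540 at 855, FKBP15-2 at 693 and AT5G07960 at 578. ATDAD1 came at 315, AT4G40042 at 158 and AT4G24920 at 143. That ranking would not keep these genes, but it would keep AT2G22425 (rank 94), AT3G12587 (10) and AT5G02502 (8).

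The oligosaccharyltransferase pair has some of the shortest open reading frames among the 100, and the whole coding strand of each, from the TAIR10.1 genome with coding ends from RefSeq, is shown to give its size.
AT3G12587 (chr3:3994586-3994699, minus strand): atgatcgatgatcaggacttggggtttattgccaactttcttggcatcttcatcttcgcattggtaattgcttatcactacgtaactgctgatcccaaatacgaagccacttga
AT5G02502 (chr5:558604-558711, minus strand): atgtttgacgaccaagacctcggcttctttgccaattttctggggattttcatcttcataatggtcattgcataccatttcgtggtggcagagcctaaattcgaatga
AT3G12587 had 181, 161 and 179 CPM in the NAC57 libraries and 16.4 to 81.8 CPM in the others. AT5G02502 had 48.1, 53.0 and 45.1 CPM in the NAC57 libraries, at most 25.2 CPM in the 3 early lines and 3.91 to 7.97 CPM in those of CALS7 and NAC73. AT3G12587 overlaps AT3G12585 and AT3G12590 on the same strand, and reads from overlapping genes cannot be told apart.

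Longer genes of these complexes had lower scores than the short ones by median, though those of signal peptidase were above 0, at 0.19 to 0.60. In oligosaccharyltransferase, the 4 eligible genes of up to 450 bases had a median score of 1.12 and the 4 longer ones -0.08. For example, DGL1, its 48 kDa subunit with 1314 coding bases, stood at 308 CPM in the NAC57 line and 319 CPM in CVP2-DBOX. In the Sec61 group the medians were 0.78 for 4 short and -0.05 for 3 longer genes, and in signal peptidase 1.21 for 2 short and 0.57 for 4 longer genes. These families were put together from RefSeq product names after the 100 genes were seen, and the medians include genes among the 100, so they are a description. A gene placed by product name, such as SCY2 in the Sec61 group, need not be a subunit of the ER complex.

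Subunits of the mitochondrial respiratory chain and ATP synthase formed another group, with 7 genes of 168 to 357 coding bases and scores of 0.82 to 0.90. The ATP synthase gene AT5G59613 had 346 ± 17.2 CPM in the NAC57 line (SD, n = 3) and 185 CPM in PEAR1, the next-highest line. AT3G46430 had 290.2 ± 11.9 CPM against 164 CPM in PEAR1-DBOX, and AT3G01130 a mean of 118 CPM against 66.3 CPM in CVP2-DBOX. AT1G14450, AT2G47690 and AT3G57785 belong to complex I, which takes electrons from NADH, and AT5G05370 to the cytochrome bc1 complex. By TMM-scaled CPM, AT5G05370 ranked at 1826, AT5G59613 at 1039 and AT2G47690 at 354. AT1G14450 came at 353, AT3G46430 at 344 and AT3G57785 at 131. Of this group, that ranking would keep only AT3G01130 (rank 55). Of 17 eligible genes grouped with ATP synthase by product name, the 8 short ones had a median score of 0.60 and the 9 longer ones -0.23. For complex I the medians were 0.49 for 16 short and -0.03 for 13 longer genes. The longer sets also hold assembly factors, such as AT2G34050 (-0.57) of ATP synthase. In complex I, assembly and associated factors ran from -0.78 (AT1G04900) to 0.50 (AT1G17350). Its longer subunits ran from -0.54 (AT5G11770) to 0.53 (AT4G26965), so these medians do not describe subunits alone. ATP3, the gamma subunit of ATP synthase, had 460 CPM in the NAC57 line and 553 CPM in PEAR1-DBOX. Organelle-encoded genes took 0.396 to 0.682% of counts in the NAC57 libraries, 0.656 to 0.999% in NAC73 and 1.14 to 2.62% elsewhere.

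**Figure D3:**
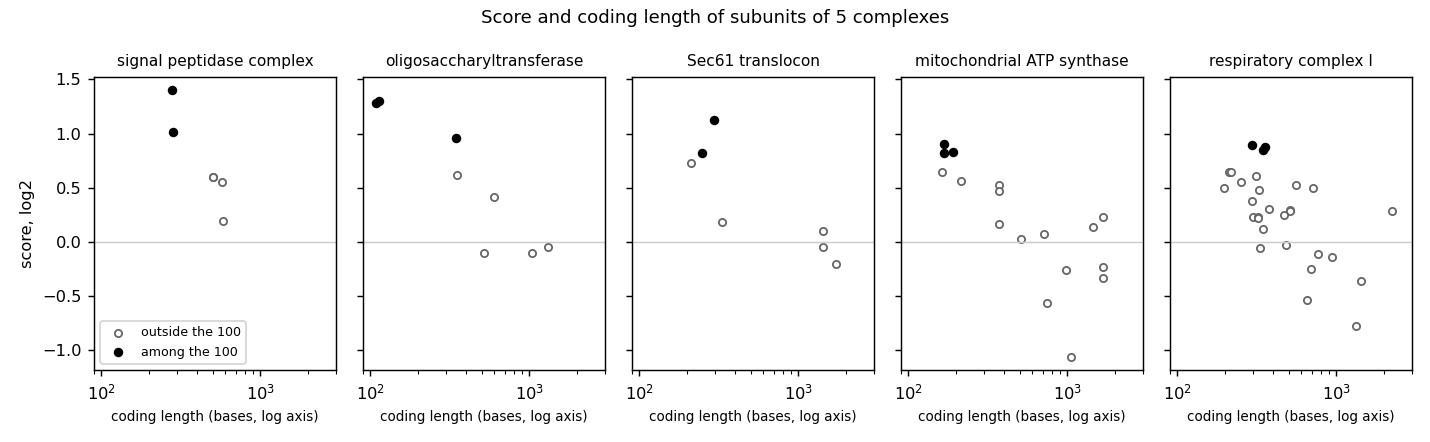
Each panel shows 1 complex, with the score (log2) of each eligible gene against its coding length on a log axis, and genes among the 100 filled. Genes were placed by product name, so assembly factors are shown with subunits. Filled genes lie at the top of every panel and have at most 357 bases, and genes over 1000 bases lie at or below 0.28. Some open genes are shorter than the filled ones, such as AT3G08610 of complex I (198 bases) and AT5G50460 of Sec61 (210 bases).

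In translation, a pair of ribosomal protein L41 genes was among the 100, beside AT1G29550, an eIF4E gene. L41 is the smallest protein of the large ribosomal subunit. The files hold 5 L41 genes of 78 coding bases that encode 1 identical protein of 25 amino acids and differ at 9 positions, so the coding strands are shown to set the copies side by side, with capitals at the positions that differ.
AT2G40205 (among the 100; chr2:16792355-16792531, minus strand): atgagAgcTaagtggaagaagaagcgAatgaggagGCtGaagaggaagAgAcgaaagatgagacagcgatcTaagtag
AT3G56020 (among the 100; chr3:20790826-20791043, minus strand): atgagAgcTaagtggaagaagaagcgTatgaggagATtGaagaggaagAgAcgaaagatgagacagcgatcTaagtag
AT3G08520 (chr3:2586032-2586206, plus strand): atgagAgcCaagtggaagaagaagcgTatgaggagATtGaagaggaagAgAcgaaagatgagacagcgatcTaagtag
AT3G11120 (chr3:3481128-3481304, plus strand): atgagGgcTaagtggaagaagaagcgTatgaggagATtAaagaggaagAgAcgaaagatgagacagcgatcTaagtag
AT1G56045 (chr1:20962686-20963268, plus strand): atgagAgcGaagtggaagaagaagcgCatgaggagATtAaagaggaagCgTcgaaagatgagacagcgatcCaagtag
Each is joined from 2 coding exons, and pairs of copies differ by 1 to 8 bases. Reads that lie within the coding part can be shared between copies, so the level of a single copy is uncertain.

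AT2G40205 had 402, 411 and 403 CPM in the NAC57 libraries. It had 84.8 to 249 CPM in those of PEAR1, PEAR1-DBOX and CVP2-DBOX and 5.78 to 57.0 CPM in those of CALS7 and NAC73. AT3G56020 had 253, 300 and 213 CPM in the NAC57 libraries, 53.1 to 136 CPM in the 3 early lines and 6.82 to 36.7 CPM in CALS7 and NAC73. The other 3 copies were also low in CALS7 and NAC73, but their scores were 0.06 to 0.28: AT1G56045, for example, had a mean of 150 CPM in the NAC57 line and 125 CPM in PEAR1-DBOX.

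**Figure D4:**
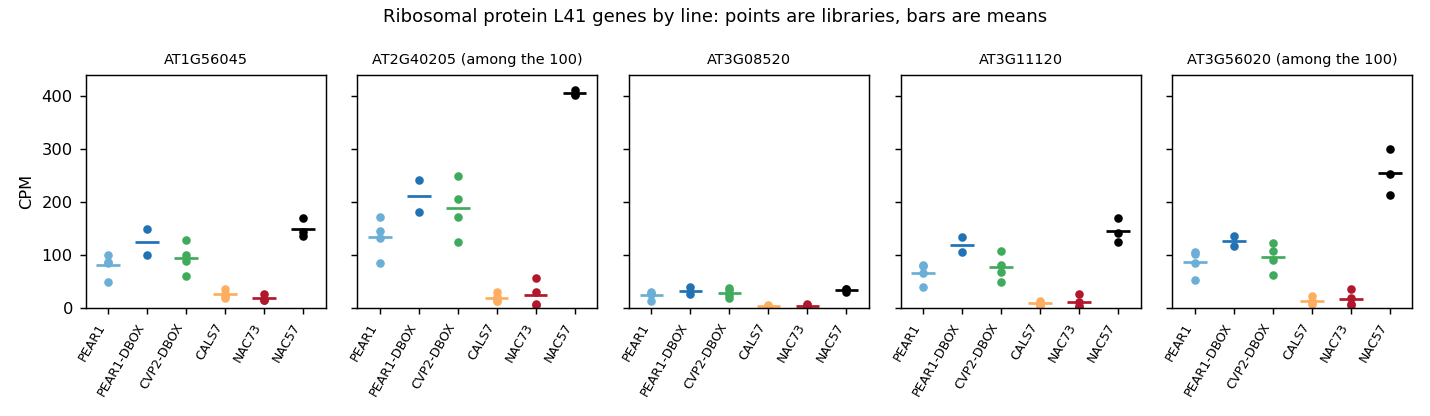
Each panel shows 1 L41 gene with CPM in every library by line (points) and the line mean (bars). The copies AT2G40205 and AT3G56020 are highest in the NAC57 line without overlap, which the rule nearly fixes. All 5 copies are low in CALS7 and NAC73.

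Genes of signalling, transcription and growth made up 14 of the 100, and 7 of them have over 450 coding bases. HCA2, a DOF transcription factor known from a mutant with raised cambial activity (chr5:25256852-25258704), had 235, 215 and 170 CPM in the NAC57 libraries. It had 51.0 to 127 CPM in the PEAR1, PEAR1-DBOX and CVP2-DBOX libraries, 15.7 to 46.3 CPM in CALS7 and 0.0807 to 9.31 CPM in NAC73. WRKY15, a transcription factor, had 84.2, 67.0 and 83.9 CPM in the NAC57 libraries and 1.59 to 39.4 CPM elsewhere. GRF6, a growth-regulating factor, had 30.7, 23.4 and 23.4 CPM and at most 19.3 CPM elsewhere. DRB5, a protein that binds double-stranded RNA, had a mean of 59.8 ± 9.15 CPM (SD, n = 3) and at most 24.7 CPM elsewhere. ROPGEF11, an activator of ROP GTPases, had 44.6, 35.6 and 37.1 CPM, 4.02 to 18.1 CPM in the 3 early lines and 1.49 to 4.14 CPM in CALS7 and NAC73. In HCA2 and WRKY15 all CALS7 and NAC73 libraries were below all those of the 3 early lines, while DRB5 in CALS7 (10.7 to 22.6 CPM) was above its level in PEAR1-DBOX (2.60 and 3.75 CPM).

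CLE41 encodes the precursor of TDIF, a peptide made in phloem that acts through the receptor PXY in the neighbouring procambium, where it keeps cells dividing and holds back xylem formation. The peptide is cut from the end of the precursor, so the last part of the coding strand is shown, with the last 12 codons before the stop codon in capitals.
CLE41 (coding part at chr3:9046779-9047078, plus strand): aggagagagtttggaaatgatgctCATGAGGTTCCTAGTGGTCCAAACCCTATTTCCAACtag
CLE41 had 134, 99.7 and 126 CPM in the NAC57 libraries and between 25.4 and 63.6 CPM, with a median of 48.1, in the 18 others. The groups did not overlap, which the rule nearly fixes for the genes it keeps. Ranked by TMM-scaled CPM, CLE41 came at 589.

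The other genes of this group were the S1FA-like pair AT3G09735 and AT2G37120, small DNA-binding proteins, SMAP1, a small acidic protein, ROXY2, a glutaredoxin-like protein, AT1G17490, of the epidermal patterning factor family of secreted peptides, SAMBA, known as a regulator of the anaphase-promoting complex, NPY2, of the NPH3 family, and SOL1, a CXC-domain protein. AT3G09735 had 169, 192 and 184 CPM in the NAC57 libraries against at most 114 CPM, and SMAP1 157, 131 and 167 CPM against at most 86.8 CPM. ROXY2 had 28.1, 23.0 and 18.7 CPM in the NAC57 libraries and at most 11.9 CPM elsewhere. NPY2 had 197, 161 and 146 CPM there, 73.9 to 100.7 CPM in CALS7 and 9.18 and 12.7 CPM in PEAR1-DBOX. SOL1 had 205, 162 and 160 CPM there and 7.23 to 28.6 CPM in NAC73.

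The remaining roles were spread thinly. Chaperone and stress genes numbered 7, with AT1G54050, PFD1 of the prefoldin complex, AT1G16680 with a DnaJ domain, the defensin PDF2.5, AT1G25275, AT3G07230 and RCI2A, a small membrane protein induced by cold. Genes of ubiquitin and SUMO numbered 4 (AT5G41560, AT3G11600, ATL63 and SUMO5), of plastid and carbon metabolism 4 (GDCH, LSF2, PGP1 and OEP7) and of redox 3 (AT5G09830, ATTRX4 and AT2G04700). SP1L3 and GIP2 act on microtubules, and AT3G09470 is another major facilitator gene. AT3G07230, annotated as wound-responsive, had 265, 249 and 201 CPM in the NAC57 libraries and at most 144 CPM elsewhere. AT5G09830, of the BolA family, had 103 to 109 CPM in NAC57 1 and 2 and at most 51.1 CPM elsewhere. GDCH, the H protein of glycine decarboxylase, had 11.9, 10.8 and 10.7 CPM and at most 5.85 CPM elsewhere. AT5G41560, a partner of DET1 in a ubiquitin ligase, was the most even, with 90.3, 89.8 and 90.4 CPM in the NAC57 libraries and 19.9 to 53.4 CPM elsewhere. SP1L3 had 173, 151 and 163 CPM and 35.8 to 74.0 CPM elsewhere. The non-coding AT3G12965 had 496, 459 and 420 CPM, 219 and 290 CPM in PEAR1-DBOX and 27.8 to 76.7 CPM in CALS7 and NAC73.

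No role was assigned to 41 genes, which had scores of 0.82 to 1.69 and means of 14.7 to 499 CPM in the NAC57 line. AT4G29735 had 315, 317 and 295 CPM in the NAC57 libraries and 45.8 to 167 CPM elsewhere. AT5G35740, with a carbohydrate-binding X8 domain, had 618, 483 and 397 CPM, 211 to 315 CPM in CALS7 and at most 208 CPM in the other lines. AT3G56810 had 110.7 ± 4.80 CPM (SD, n = 3) and 0.372 to 56.8 CPM elsewhere.

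The lines other than NAC57 gave 3 comparisons. All libraries, those of NAC57 too, entered the gene filter, the scaling factors and the shared estimate of the spread. The comparisons were tested with edgeR's quasi-likelihood test over 26074 genes. The levels of those lines did enter the choice of genes through the highest of them. CVP2-DBOX differs from PEAR1 in promoter and destruction box, and from CALS7 in promoter, box and reporter protein. The parts of these in a change cannot be told apart. All 100 genes were tested, and a call means a Benjamini-Hochberg adjusted p under 0.05 over all genes.

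CVP2-DBOX was higher than PEAR1 in 20 of the 100, beside 12.2% of all genes tested and 28.9% of the eligible genes, and lower in 1, beside 15.2% of all genes. The median change was 0.33 on the log2 scale, against -0.20 over all genes tested and 0.42 over the eligible genes, so the 100 lay below the set they were drawn from. The largest rises were AT5G03050 (1.38 ± 0.33, SE, adjusted p = 0.004359 in edgeR), AT5G02970, a hydrolase gene (1.34 ± 0.15), AT5G53900 (1.28 ± 0.31), AT1G23940 (1.23 ± 0.37) and AT1G17285 (1.05 ± 0.19). The exception was RCI2A, with 134 ± 49.9 CPM in PEAR1 and 16.1 ± 2.00 CPM in CVP2-DBOX (SD, n = 4; log2 change -2.85 ± 0.39, SE, adjusted p = 3.562e-05 in edgeR). The count of 20 fell to 12, 12 and 11 without PEAR1 1, 2 and 3, to 13, 12 and 13 without CVP2-DBOX 1, 2 and 3, to 8 with median-of-ratios factors and to 6 with library totals and no factors. The call of AT1G23940 was lost without PEAR1 2 or 3 and with library totals. CLE41 was higher too (0.77 ± 0.24, adjusted p = 0.02314 in edgeR), a call lost without PEAR1 1 or 2, with median-of-ratios factors and in DESeq2 (adjusted p = 0.05639 to 0.096).

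From CVP2-DBOX to CALS7, 26 of the 100 were lower, beside 23.7% of all genes and 44.1% of eligible genes. Another 6 were higher, beside 16.9% of all genes and 25.9% of eligible genes. Both shares are below those of the eligible genes, the set the 100 were drawn from. The share of lower calls is near that of all genes. The largest falls were the L41 genes AT2G40205 (-3.16 ± 0.49, adjusted p = 4.39e-05 in edgeR) and AT3G56020 (-2.67 ± 0.43), with AT1G10657 (-2.85 ± 0.78), AT1G05835 (-2.40 ± 0.70) and AT1G16000 (-2.38 ± 0.50). Higher were RCI2A (2.42 ± 0.39), PDF2.5 (1.38 ± 0.44), AT4G01897 (1.03 ± 0.30), AT5G35740 (1.03 ± 0.31) and NPY2 (0.75 ± 0.25), beside medians of 0.11 over all genes tested, -0.37 over the eligible genes and -0.34 over the 100. Without CVP2-DBOX 2, 16 were lower and 11 higher, and without CVP2-DBOX 1, 3 were higher. The call of PDF2.5 was lost without CVP2-DBOX 1, 3 or 4, that of NPY2 without CVP2-DBOX 1 or 3 or CALS7 2, and that of AT1G05835 without CVP2-DBOX 2.

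Between NAC73 and CALS7 the direction of the group rested on the scaling. With TMM factors 48 of the 100 were higher in NAC73, beside 15.6% of all genes and 30.2% of eligible genes, and 14 were lower, beside 20.3% and 7.26%. The median change was 0.64, against -0.12 over all genes tested and 0.36 over the eligible genes. With library totals in place of factors 6 were higher and 30 lower, as the median change of all genes moved by -0.72. The short coding genes made up most of the higher calls under TMM, 38 of 64 (59.4%), but eligible short genes outside the 100 were near that, at 49.2%. Of the 32 longer coding genes, 8 were higher and 8 lower. A fit of these 8 libraries alone called 4 higher and 9 lower, and with NAC73 1 and 4 only 26 were higher. The fit of 8 libraries had its own gene filter and scaling factors, so spread and scaling both differ from the main fit.

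**Figure D5:**
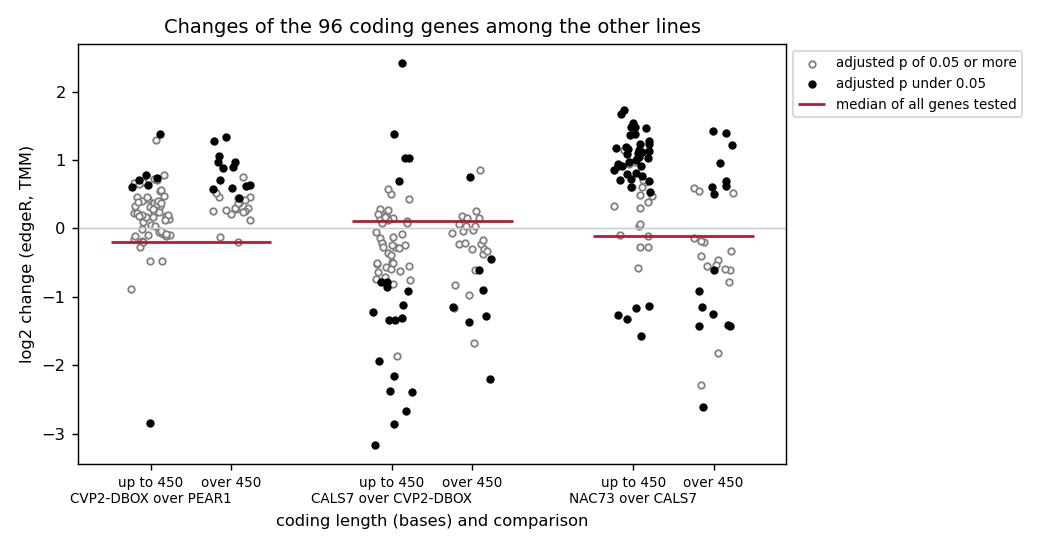
Points are log2 changes (edgeR, TMM) of the 96 coding genes in 3 comparisons among the other lines, split at 450 coding bases, with calls filled. The red bars are the medians over all genes tested, at -0.20, 0.11 and -0.12, and the short genes of NAC73 over CALS7 lie mostly above theirs.

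The 10 largest called changes in that comparison, 5 in each direction, held their direction and call with TMM factors, median-of-ratios factors and library totals. HCA2 was lower in NAC73 (log2 change -2.61 ± 0.78, adjusted p = 0.01681 in edgeR), as were AT3G19200 (-1.57 ± 0.29), SOL1 (-1.43 ± 0.25), AT3G16070 (-1.43 ± 0.28) and DRB5 (-1.41 ± 0.32). RCI2A was higher (1.73 ± 0.38, adjusted p = 0.002271), with 75.4 to 87.3 CPM in CALS7 and 56.6 to 211 CPM in NAC73, as were AT5G53650 (1.67 ± 0.32), AT3G13845 (1.54 ± 0.26), AT4G14615 (1.48 ± 0.24) and AT2G22425 (1.48 ± 0.28). In the fit of the 8 libraries alone the calls of 4 of these were lost. There HCA2 had a log2 change of -3.08 (adjusted p = 0.1162 in edgeR), RCI2A 1.39 (adjusted p = 0.08213), AT5G53650 1.32 (adjusted p = 0.05991) and AT2G22425 1.13 (adjusted p = 0.08521). CLE41 was higher in NAC73 with TMM factors (0.85 ± 0.24, adjusted p = 0.0129 in edgeR) and at -0.0197 with library totals, and at 0.49 (adjusted p = 0.4031) in the fit of the 8 libraries.

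The 26 lists held 287 genes of phloem and other root cell types, cell cycle, autophagy, stress, hormones, glucosinolates, phosphate, sulfate and actin. CLE41, HCA2, WRKY15, RCI2A and AT1G54050 are among the 100 but on none of the lists. Of the 287 list genes, 0 were among the 100, which are few of the 10446 eligible genes, so this count says little. Of the 285 that could be tested, edgeR called 0 higher in the NAC57 line than in each of the other 5 lines, beside 0.414% of all genes, with 1 at an unadjusted p under 0.05 in every comparison, 0 by DESeq2 and 1 by limma voom. It called 1 lower than in each, beside 0.545%, with 2 at an unadjusted p under 0.05. That was WAVE2, an activator of actin branching, with 1 count in the 3 NAC57 libraries together and 11.6 to 230 CPM in the others (largest adjusted p = 5.149e-10). The sum of 16 genes of G2 and M phase was 1241 to 1469 CPM in the NAC57 libraries, 4039 to 5867 CPM in CVP2-DBOX, 2298 to 4553 CPM in PEAR1-DBOX, 552 to 739 CPM in PEAR1 and 42.8 to 133 CPM in CALS7 and NAC73. The sum of 10 DNA replication genes was 737 to 964 CPM in the NAC57 libraries, 754 to 1085 CPM in PEAR1, 595 to 1027 CPM in CVP2-DBOX, 462 to 697 CPM in PEAR1-DBOX and 14.2 to 371 CPM in CALS7 and NAC73. In these bulk samples, fewer cells of a type and less RNA per cell cannot be told apart.

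The 250 bases before the annotated start of 99 of the genes were searched on both strands for 12 short motifs, and the shares were close to those of the eligible genes for the commonest ones. Site II and the telo box were not among the planned motifs and were added later. The W-box core TTGAC was in 48 of 99 (48.5%), against 43.2% of eligible and 44.5% of all promoters, and the site II motif GGCCCA in 23 (23.2%), against 21.4% and 12.3%. The G-box CACGTG was in 3 (3.03%), against 7.58% of eligible promoters. The DOF core AAAG was in all 99 and in 98.0% of eligible promoters. The telo box AAACCCTA was in 7 (7.07%), against 3.94% of eligible promoters. ACCAAC was in 12 (12.1%), against 11.7% of eligible promoters, GCCGCC in 4 (4.04%) against 1.87%, and ACCTACC in 3 (3.03%) against 1.03%. GNATATNC was in 3 (3.03%) against 5.11%, and CACGCG in 2 (2.02%) against 3.06%. TGACGTCA and the mitochondrial dysfunction motif were in 0, against 0.565% and 0.335%. A match is a description of letters, not of binding.

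On the genome, no 2 of the 100 were neighbours among coding genes, and 30 overlap another counted gene, 26 of them on the opposite strand. Whether counting used strand is not given in the sources used here, so reads of such a gene and its partner cannot be told apart. Examples with an opposite-strand partner are ROPGEF11, ATDAD1, RCI2A, AT2G40205, NPY2 and SOL1.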

How the data were processed

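RNA of sorted root protoplasts was measured in 21 libraries of 6 lines. The authors deposited raw read counts per gene, without normalisation. The submitters' processing notes name TAIR10 as the build, with featureCounts, Bowtie2 and edgeR as tools, and no versions. Per the labels' protocols, cDNA was made from low input with PCR, so reads are not independent molecules.

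CPM were computed from each file's total. The score used a minimum of 10 CPM and a pseudocount of 1. The 100 genes, 26 gene lists, tests and role groups were chosen with earlier results of these data known, and the role groups after the 100 genes were seen. Of the locus codes, 32835 were in the TAIR10.1 annotation, which gave symbols, lengths, places and sequences. List genes whose symbol did not match their locus were dropped (9).

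A coefficient per line was fitted over all 21 libraries in edgeR 4.0.16 under R 4.3.3, with TMM scaling, filterByExpr, robust quasi-likelihood F tests and Benjamini-Hochberg adjustment at 0.05, and changes are log2 with the SE of the model. The fit was tested on data simulated with less spread between libraries than was found here (common dispersion 0.377). That test does not show how the fit performs on these libraries. Alternatives were median-of-ratios factors, no filter, DESeq2 1.42.0, limma 3.58.1 voom, a replicate block, only the lines compared, other ranking settings and each library left out. Library totals, a length-adjusted ranking and subsets of PEAR1 and NAC73 libraries were added after the data were seen. Named by rule were the first 30 genes by rank, up to 5 calls of largest change per direction and comparison, the 5 genes on each side of rank 100, reporter genes and called list genes; other genes named stand for their role group and were picked after their values were seen. Figures used matplotlib.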

Additional observations from a re-analysis of the deposited data

Results flagged for a closer look

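For the 100 genes, 249 values (1 gene in 1 line of 4 libraries, mean 20 CPM or more) were scanned, and this floor was set with the values known. Of these, 8 had a library that stood far from the other 3. Chance gives about 1 in 20 such values, so 8 is no more than it would give. AT1G25275, a thionin-like gene, stood at 54.1 CPM in NAC73 1 and at 7.52 to 13.3 CPM in the other NAC73 libraries. ATDAD1 stood at 76.6 CPM in NAC73 4, below 135 to 141 CPM in the others. NPY2 stood at 74.1 CPM in CVP2-DBOX 4, against 53.4 to 54.1 CPM, and at 73.9 CPM in CALS7 3, against 96.1 to 100.7 CPM. SOL1 stood at 100.8 CPM in CALS7 1, against 72.6 to 76.7 CPM. AT5G07960 stood at 76.6 CPM in CALS7 2, against 63.9 to 64.6 CPM, and AT2G47690 at 45.4 CPM in CALS7 4, against 37.1 to 38.2 CPM. AT3G16070 stood at 38.6 CPM in CVP2-DBOX 4, against 47.0 to 48.4 CPM.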

How the results depend on the processing

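Of the 100 genes, 60 stayed among the first 100 with TMM-scaled CPM, 52 with median-of-ratios CPM and 58 with the length-adjusted ranking, while other pseudocounts, minimums and summaries kept 80 to 97 and leaving out a library 87 to 100. The held-out counts stayed between 90 and 100 under their alternatives. For members higher in CVP2-DBOX than PEAR1 (20), the count was 8 with median-of-ratios factors, 12 with DESeq2, 39 with limma voom, 6 with library totals and 11 to 24 with a library left out. Members lower there (1) were 2 with limma voom, 3 with only the lines compared and 2 with library totals. Members higher in CALS7 than CVP2-DBOX (6) were 11 with DESeq2, 12 with only the lines compared and 3 to 11 with a library left out, and those lower (26) were 16 to 34. Members higher in NAC73 than CALS7 (48) were 4 with only the lines compared, 6 with library totals, 26 with NAC73 1 and 4 only and 39 to 56 with a library left out, and those lower (14) were 9, 30, 14 and 10 to 17. List genes higher in NAC57 than each other line (0) were 1 with limma voom, 1 with library totals and 0 to 1 with a library left out. Those lower (1) were 2 with median-of-ratios factors, DESeq2, limma voom, only the lines compared and library totals, and 1 to 2 with a library left out. CLE41 in NAC73 over CALS7 turned to -0.0197 with library totals. The causes were not tested.

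Same-numbered libraries of the lines compared had correlations of their deviations of -0.1666 to 0.0769, so the numbers do not pair them. With the replicate block the counts were 17 and 1 for CVP2-DBOX over PEAR1, 6 and 24 for CALS7 over CVP2-DBOX, 41 and 14 for NAC73 over CALS7, and 0 and 1 for list genes. Genes low in a line rest on few counts, and depth limits them most in NAC73.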
